A study of Mus musculus with 6 samples.

Results

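Genes encoding proteins of the mitochondrial ribosome (mitoribosome) were followed in RNA-seq libraries from mouse femur. Members were all genes whose symbol is Mrpl or Mrps followed by a number and at most 1 letter, the naming rule for large and small subunit proteins. The rule took 78 of the 34361 genes in the table, 49 with an Mrpl name and 29 with an Mrps name. All 78 passed the filter on low counts, and they lay on 17 chromosomes, with 11 on chromosome 11. The study held 6 libraries. In the first group, 3 mice are labelled as a knockout induced with tamoxifen. In the second, 3 control mice were injected with corn oil, the usual vehicle of tamoxifen. The design text names Fshr, the receptor of follicle-stimulating hormone, as the deleted gene, whereas the treatment label names FGF21, so the first group is called knockout-labelled here. Neither the strain, the age, the driver of the recombinase nor any surgery of these animals is given in the labels, although the series title concerns osteocytes and ovariectomized mice. Since only the knockout-labelled mice received tamoxifen, drug and knockout cannot be told apart.

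The mitoribosome is the ribosome inside mitochondria that translates the few proteins encoded by mitochondrial DNA, all of them core subunits of the respiratory chain and ATP synthase. Its RNAs come from mitochondrial DNA, while all of its proteins are encoded in the nucleus, made in the cytosol and imported. Part of these proteins descend from bacterial ribosomal proteins, and the rest were added during the evolution of mitochondria. Demand for them is high in tissues rich in mitochondria, such as skeletal muscle.

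Estimated counts summed to 65.8 to 73.5 M per library, or about 16.4 to 18.4 M read pairs. Of 20388 genes tested, 28.7% were higher and 28.8% lower in knockout-labelled femora, at a median log2 fold change of -0.019. Fshr and Fgf21 each had 0 counts in all 6 libraries, so neither could check the labels. The libraries held markers of bone in both groups. The 9 osteoblast markers took 1.99% to 2.01% of counts in knockout-labelled libraries and 10.2% to 10.3% in controls. The 14 skeletal muscle markers, none of them at 0, took 10.1% to 10.2% of counts in knockout-labelled libraries and 2.18% to 2.22% in controls, and 14 of 14 were higher in knockout-labelled femora.

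Transcripts of the mitoribosomal proteins were higher in knockout-labelled femora relative to the median gene. With TMM scaling, which sets the bulk of genes to no change, 74 of the 78 members passed the test upward and none downward (quasi-likelihood F test of edgeR, adjusted p under 0.05 by Benjamini-Hochberg), whereas TPM values, which share out each library's whole content, split the members into 27 higher and 30 lower. None was lower at an unadjusted p under 0.05 or by DESeq2 either. The background share of genes called under TMM was 28.7% higher and 28.8% lower, and on TPM it was 13.3% higher and 77.9% lower. The median member had a log2 fold change of 0.76, a 1.69-fold difference, within a range of -0.10 to 1.61. A log2 fold change of 1 or more was seen in 19 members, against 14.1% of all genes tested. In 75 members, all 3 knockout-labelled libraries lay above all 3 controls in TMM-scaled CPM (counts scaled to library size), which was the case for 31.9% of all genes, and in none did they lie below, against 32.6% of all genes. On FPKM as deposited, 49 members were separated upward and 7 downward, against 17.9% and 54.6% of all genes. The skeletal muscle markers given above had a median log2 fold change of 2.61 and moved with the group in the same way as the members. Other cell type markers, none of them at 0, also differed between the groups, some lists higher and others lower. The 5 adipocyte markers were all higher, at a median of 4.08, and took 0.0303% to 0.0311% of counts in knockout-labelled libraries and 0.0033% to 0.0037% in controls. The 7 erythroid markers were all higher, at a median of 1.42, with 1.11% of counts in each knockout-labelled library and 0.536% to 0.554% in controls. Of 4 B cell markers 3 were higher, at a median of 1.03, with 0.0065% to 0.0068% of counts in knockout-labelled libraries and 0.0041% to 0.0044% in controls. The 6 osteoclast and 7 granulocyte markers were all lower, at medians of -2.39 and -0.89. Osteoclast markers took 0.151% to 0.154% of counts in knockout-labelled libraries and 1.12% in each control. Granulocyte markers took 0.321% to 0.325% in knockout-labelled libraries and 0.825% to 0.839% in controls. Of 5 osteocyte markers 2 were higher and 2 lower. The part of these tissues and cells in the result was not tested. In bulk tissue, fewer cells of a type and less RNA per cell cannot be told apart.

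The summed level of the 78 members differed little between replicates, and the ratio between the groups depended on the scale. Over all genes, same-group libraries had a median chi-square 1.54 to 1.65 times that expected from sampling of read pairs. How far so small a spread covers variation between mice was not tested. Together the members took 0.257% of counts in each knockout-labelled library and 0.195% to 0.200% in the controls. Their summed FPKM, the authors' level per kilobase of transcript, was 1148 ± 1.87 in knockout-labelled and 874 ± 15.2 in control libraries (SD, n = 3 each), a ratio of 1.31. Rescaled to TPM, however, the members made up 2708 ± 14.3 TPM in knockout-labelled libraries and 2625 ± 40.1 in controls (SD, n = 3 each), a ratio of 1.03. The authors' FPKM totals themselves were higher in the knockout-labelled libraries. The order of the genes by level was nearly the same in both groups, with a Pearson r of 0.956 between group means of log2 FPKM across 78 genes, which share libraries and are not replicates.

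**Figure D1:**
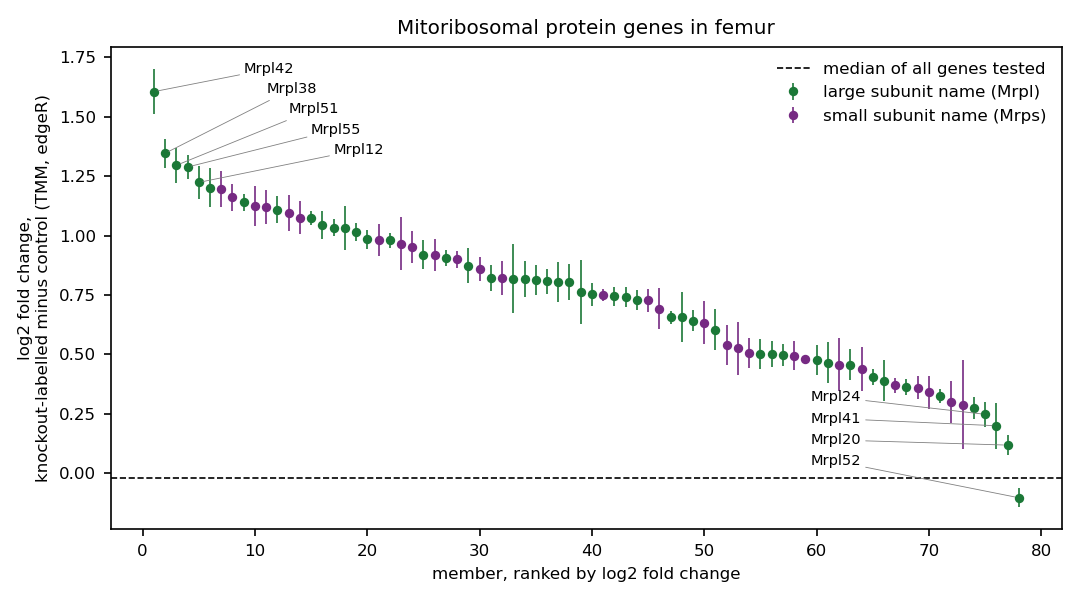
Log2 fold change of each of the 78 members (y axis, knockout-labelled minus control, TMM scaling) in order of size (x axis). Green points carry large subunit names and purple points small subunit names, bars are standard errors, and the dashed line is the median of all genes tested, -0.019. Under TMM 77 members lie above the line, from Mrpl20 at 0.12 to Mrpl42 at 1.61, and Mrpl52 lies below it at -0.10. On TPM values the median member is at -0.0098, and that of all genes at -0.71.

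How far the members differed in absolute terms depended on the scaling, while 77 of the 78 stayed above the median gene. Library totals gave 51 members higher and 4 lower, at a median of 0.34, against 16.6% and 50.7% of all genes. The median of all genes was then -0.44, beside -0.019 under TMM. TPM gave a member median of -0.0098 and a median of -0.71 over the 13778 genes of that fit. Under each of 6 scalings 27 members were called higher, and 38 had a positive log2 fold change in all 6. By contrast, 26 members were called higher under at least 1 scaling and lower under at least 1 other, so their direction depended on the scaling. The shares of all genes that meet these conditions were not computed, so the counts do not set the members apart from other genes. Mrpl52 was the 1 member with a negative log2 fold change under all 6. Relative to the median gene, 77 of the 78 members were higher in the TMM fit and in each of the 17 other settings, with a distance between the 2 medians of 0.64 to 0.80. A scale factor per library moves all genes nearly alike, so median-of-ratios scaling and library totals could hardly have changed this count. The step from FPKM to TPM is such a factor too. All directions and folds below are relative to TMM scaling unless another scale is named.

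**Figure D2:**
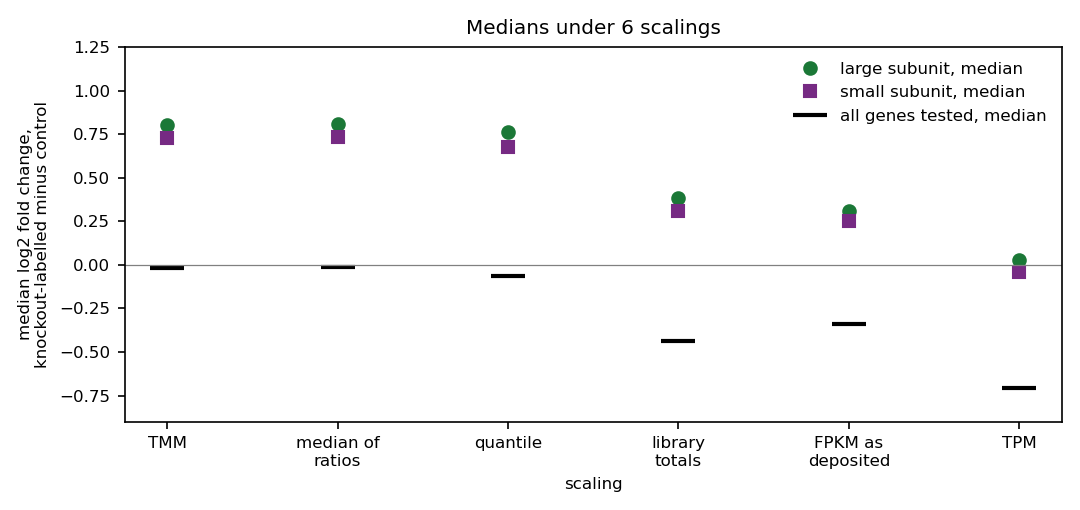
Median log2 fold change (y axis, knockout-labelled minus control) of large subunit genes (green circles), small subunit genes (purple squares) and all genes tested (black bars) under 6 scalings (x axis). Both subunit medians lie above the bar under each scaling, but they are near 0 on TPM values, at 0.028 for the large subunit and -0.044 for the small subunit.

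Mrpl42 stood first among the members. It encodes a large subunit protein without a bacterial counterpart (ENSMUSG00000062981, chromosome 10, 95316667 to 95337789, minus strand, GRCm39). Its level was 28.8, 29.0 and 28.2 FPKM in the 3 knockout-labelled libraries and 11.3, 14.1 and 12.6 FPKM in the 3 controls. The groups did not overlap, and every knockout-labelled library held more than any control by a margin wider than the spread of either group. On the log2 scale it was higher by 1.61 ± 0.096 (SE), or 3.04-fold, with an adjusted p of 4.8e-10. FPKM ratios are smaller than these folds because TMM rescaled the library totals by 0.863 to 0.866 in knockout-labelled and by 1.16 in control libraries.

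Mrpl38, which builds the central protuberance of the large subunit, came next with 17.7, 16.5 and 17.6 FPKM in knockout-labelled libraries and 8.71, 9.73 and 8.91 FPKM in controls. The log2 fold change was 1.35 ± 0.062 (SE), with an adjusted p of 1.2e-09. Mrpl51, specific to mitochondria, and Mrpl55, of bacterial descent, averaged 16.3 ± 0.923 and 23.8 ± 1.21 FPKM in knockout-labelled libraries, against 8.91 ± 0.618 and 13.1 ± 0.421 FPKM in controls (SD, n = 3 each). Their log2 fold changes were 1.30 and 1.29. In all 3 genes the libraries of the groups were fully separated, on FPKM as on the TMM scale.

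Mrpl12, homologous to the bacterial stalk protein that recruits translation factors and known also to bind the mitochondrial RNA polymerase, was the most abundant large subunit member to rise 2-fold. It had 49.8, 50.9 and 50.7 FPKM in knockout-labelled libraries and 27.1, 31.6 and 28.4 FPKM in controls, with a log2 fold change of 1.22 ± 0.069 (SE; adjusted p = 9.8e-10). Every knockout-labelled library exceeded every control by a margin wider than the spread within either group. Mrpl10, on which the stalk stands in the bacterial ribosome, behaved otherwise, with 20.2 ± 0.528 FPKM in knockout-labelled and 21.6 ± 0.591 FPKM in control libraries (SD, n = 3 each). It was higher under TMM, at a log2 fold change of 0.33, but lower on log2(FPKM + 1), at -0.095, and on TPM, at -0.44. Under library totals it had -0.095 and did not pass (adjusted p = 0.11). Mrpl53, which lies near the stalk and is specific to mitochondria, had 42.6 ± 1.09 FPKM against 27.9 ± 0.974 FPKM in controls (SD, n = 3 each) and a log2 fold change of 1.03.

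Mrpl45 lines the exit of the peptide tunnel and holds the mitoribosome to the inner membrane, where its products are inserted. It had 15.2, 14.9 and 15.9 FPKM in knockout-labelled libraries and 9.13, 9.62 and 9.22 FPKM in controls, and its log2 fold change was 1.14 ± 0.036 (SE; adjusted p = 1.8e-09). Mrpl24, a bacterial-type protein of the tunnel region, had 20.2, 18.4 and 19.0 FPKM in knockout-labelled libraries and 21.9, 20.9 and 22.4 FPKM in controls. The groups were separated in both genes, but in opposite directions on FPKM. Under TMM the log2 fold change of Mrpl24 was 0.25 (adjusted p = 0.00099), and it turned to -0.17 under library totals and -0.52 on TPM.

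Mrpl14, the surface protein of the large subunit to which the assembly factor Malsu1 binds, had 33.1 ± 0.985 FPKM in knockout-labelled and 19.3 ± 1.62 FPKM in control libraries (SD, n = 3 each), and its log2 fold change was 1.20. Mrpl18, homologous to the bacterial protein that holds 5S rRNA, was the most abundant member over all libraries, at 48.6 ± 1.32 and 33.1 ± 0.774 FPKM in knockout-labelled and control libraries (SD, n = 3 each), with a log2 fold change of 0.98. Mrpl44, which carries a fold of the ribonuclease III family and whose human counterpart is mutated in an infantile cardiomyopathy, averaged 16.5 ± 0.581 FPKM in knockout-labelled and 12.7 ± 1.03 FPKM in control libraries (SD, n = 3 each). It was higher by 0.80 on the log2 scale (adjusted p = 8.8e-07), and it did not pass on TPM. Mrpl34, the fifth member by level, had a log2 fold change of 0.74 that became -0.033 on TPM and no longer passed.

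Mrpl58, also known as ICT1, is a peptidyl-tRNA hydrolase that frees stalled mitoribosomes and is at the same time built into the large subunit. It had 6.20, 6.35 and 6.64 FPKM in knockout-labelled libraries and 5.94, 6.42 and 5.91 FPKM in controls, so the groups overlapped on FPKM. Under TMM its log2 fold change was 0.50 (adjusted p = 3.1e-05), under library totals it was 0.076 and did not pass, and on TPM it was -0.26.

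**Figure D3:**
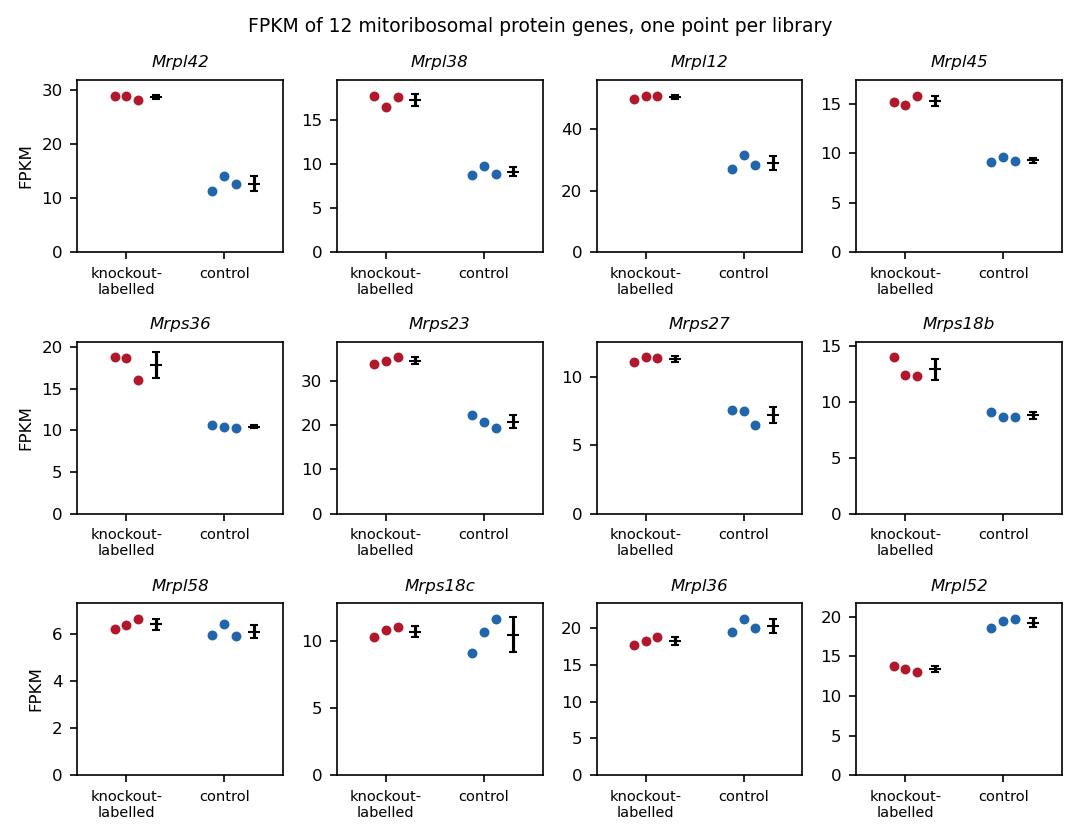
FPKM (y axis) of 12 members in each library, with knockout-labelled libraries as red points on the left and controls as blue points on the right. Black bars are the mean and SD of 3 libraries. The 8 genes of the upper rows, from Mrpl42 to Mrps18b, are separated upward in knockout-labelled libraries, Mrpl58 and Mrps18c overlap, and Mrpl36 and Mrpl52 are separated downward on this scale. Under TMM scaling Mrpl36 is 0.27 higher on the log2 scale and Mrpl52 is not called.

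Members of the large subunit took both ends of the range. Mrpl52, a mitochondria-specific protein (ENSMUSG00000010406, chromosome 14, 54664366 to 54667213, plus strand, GRCm39), had 13.7, 13.4 and 13.0 FPKM in knockout-labelled libraries and 18.6, 19.5 and 19.8 FPKM in controls, without overlap. On the TMM scale its CPM were 19.2, 18.7 and 18.1 in knockout-labelled libraries and 19.2, 20.2 and 20.6 in controls. Its log2 fold change was -0.10 under TMM (adjusted p = 0.22), -0.52 under library totals (adjusted p = 2.0e-05) and -0.86 on TPM.

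Mrpl20, a bacterial-type protein of the large subunit, had 12.3, 13.5 and 12.7 FPKM in knockout-labelled libraries and 15.8, 15.7 and 16.2 FPKM in controls. Mrpl41, specific to mitochondria, had 16.3, 14.3 and 17.7 FPKM in knockout-labelled libraries and 18.0, 19.5 and 19.0 FPKM in controls. On FPKM both genes were separated downward. Under TMM their log2 fold changes were 0.12 (adjusted p = 0.12) and 0.20 (adjusted p = 0.074), and neither passed. Without knockout-labelled replicate 2, Mrpl41 passed with a log2 fold change of 0.28 (adjusted p = 0.017). Mrpl36, the bacterial-type protein with a zinc-binding fold, had 17.7, 18.3 and 18.8 FPKM in knockout-labelled libraries and 19.5, 21.3 and 20.02 FPKM in controls. Under TMM its log2 fold change was 0.27 (adjusted p = 0.0026) but -0.15 under library totals and -0.49 on TPM. Mrpl32, whose maturation depends on the m-AAA protease, and Mrpl19 were among the 5 members of lowest level, at 2.71 and 3.08 FPKM in knockout-labelled and 2.77 and 3.22 FPKM in control libraries. They had log2 fold changes of 0.39 and 0.36 under TMM, which turned to -0.032 and -0.057 under library totals.

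In the small subunit, Mrps23 and Mrps21 led. Mrps23, specific to mitochondria, had 34.0, 34.6 and 35.5 FPKM in knockout-labelled libraries and 22.3, 20.8 and 19.4 FPKM in controls, a log2 fold change of 1.16 ± 0.057 (SE; adjusted p = 1.6e-09). Mrps21, of bacterial descent and second by level among all members, had 49.5 ± 1.39 FPKM in knockout-labelled and 30.5 ± 2.94 FPKM in control libraries (SD, n = 3 each), and a log2 fold change of 1.13. Mrps27, a pentatricopeptide repeat protein that binds mitochondrial RNA, had 11.1, 11.5 and 11.4 FPKM in knockout-labelled libraries and 7.62, 7.51 and 6.53 FPKM in controls, with a log2 fold change of 1.08. None of these genes overlapped between the groups on FPKM or TMM-scaled CPM.

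Mrps12, which belongs to the decoding centre, had 17.4 ± 0.456 FPKM in knockout-labelled and 14.4 ± 1.44 FPKM in control libraries (SD, n = 3 each). Its log2 fold change was 0.69 under TMM (adjusted p = 1.5e-05) and -0.075 on TPM, where it did not pass. The lowest small subunit members were Mrps25, Mrps16 and Mrps2. Mrps2 and Mrps16, both of bacterial descent, had log2 fold changes of 0.34 and 0.30 under TMM, which turned to -0.081 and -0.12 under library totals. Mrps25 varied more between replicates than the other members named, with 5.13, 5.35 and 6.86 FPKM in knockout-labelled libraries and 5.45, 6.10 and 7.51 FPKM in controls. Its log2 fold change of 0.29 did not pass (adjusted p = 0.061), but it passed without knockout-labelled replicate 1 (adjusted p = 0.040) or without control replicate 3 (adjusted p = 0.0080). Its locus overlaps Nr2c2 on the opposite strand, and the strand setting of the counting is not given in the sources used here. Mrps35, Mrps10 and Mrps22 had the lowest levels of the small subunit, from 2.26 ± 0.136 to 3.47 ± 0.312 FPKM in knockout-labelled and from 2.14 ± 0.0945 to 2.49 ± 0.154 FPKM in control libraries (SD, n = 3 each), with log2 fold changes of 0.51, 0.49 and 0.97 under TMM. On TPM those of Mrps35 and Mrps10 turned to -0.23 and -0.24.

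Mammals have 3 descendants of bacterial ribosomal protein S18, which do not share 1 site. Mrps18b, a peripheral small subunit protein, had 13.99, 12.4 and 12.3 FPKM in knockout-labelled libraries and 9.11, 8.62 and 8.60 FPKM in controls. Mrps18c, which takes the place of S18 in the small subunit, had 10.3, 10.8 and 11.02 FPKM in knockout-labelled libraries and 9.10, 10.6 and 11.7 FPKM in controls. Mrps18b was separated between the groups and Mrps18c overlapped on FPKM. Mrps18a, found in the large subunit by structure, had 8.96 ± 0.349 FPKM in knockout-labelled and 6.63 ± 0.352 FPKM in control libraries (SD, n = 3 each). The log2 fold changes under TMM were 0.86 for Mrps18a, 0.98 for Mrps18b and 0.46 for Mrps18c (adjusted p = 0.0022). On TPM, Mrps18c turned to -0.30. The difference between the paralogs was not tested.

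The subunit in a gene's name is not always its place. Mrps30 also sits in the large subunit by structure. It had 3.79, 3.97 and 4.05 FPKM in knockout-labelled libraries and 3.14, 3.16 and 3.13 FPKM in controls, without overlap, and a log2 fold change of 0.75 that became -0.023 on TPM. Mrps36 is no mitoribosomal protein but a component of the 2-oxoglutarate dehydrogenase complex of the citric acid cycle. It had 18.8, 18.7 and 16.1 FPKM in knockout-labelled libraries and 10.6, 10.5 and 10.3 FPKM in controls, and its log2 fold change of 1.20 was the highest among Mrps names. Mrps36 and 3 other members, Mrpl23, Mrpl27 and Mrpl48, have copies with a -ps name in the table, 5 in all, which held 1.11% to 4.56% of their parent's counts each, so reads may have been divided between them.

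Set against each other, the subunits differed little. By name, 46 of 49 large subunit genes were higher and their median was 0.80 (1.75-fold), and 28 of 29 small subunit genes were higher and their median was 0.73 (1.66-fold). No gene of either subunit was called lower, while of all genes 28.7% were higher and 28.8% lower. On TPM the counts were 17 higher and 18 lower for the large subunit, and 10 higher and 12 lower for the small subunit. The shares of all genes on TPM were 13.3% higher and 77.9% lower. The difference of the medians was 0.076 on the log2 scale, while the SD of that difference between replicates was 0.059. It shrank to 0.020 without knockout-labelled replicate 2. With Mrps18a and Mrps30 moved to the large subunit and Mrps36 left out, the difference was 0.14. The difference of the mean log2 fold changes was 0.032. In summed FPKM the ratio of large to small subunit was 2.06 ± 0.0285 in knockout-labelled and 2.14 ± 0.0326 in control libraries (SD, n = 3 each), which runs the other way. No test was made between the subunits.

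By name the large subunit had the wider range, with log2 fold changes from -0.10 to 1.61 against 0.29 to 1.20 in the small subunit. The 1.20 is that of Mrps36, and by structure the small subunit reached 1.16. The large subunit also has more genes, and the SDs by name were 0.35 over 49 and 0.30 over 29 genes. Divided by whether a member fills the site of a bacterial protein, the medians were close. Of 46 members at such a site 45 were higher, at a median of 0.74. Of the 31 at sites specific to mitochondria, which include the S18 descendants Mrps18a and Mrps18b, 28 were higher, at a median of 0.76. By chromosome, member medians ran from 0.30 on chromosome 14, with 3 members, to 1.18 on chromosome 10, with 2 members. The 11 members on chromosome 11 had a median of 1.12. Medians of all genes on each chromosome were not computed. The log2 fold change was hardly related to transcript length, with a Pearson r of -0.029 across 78 genes. With log2 mean FPKM the r was 0.28 across all members, 0.16 across the 49 large subunit genes and 0.52 across the 29 small subunit genes. These are descriptions across genes that share the same libraries.

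Promoters of several of these genes are shown because the members moved together under TMM, and because factors known to act on nuclear genes for mitochondrial proteins have defined recognition sequences. Windows run from 250 bases before to 50 bases after the RefSeq start, in GRCm38.p6, and capitals mark motif letters found on either strand. The letters searched were cores of the recognition sequences, GCNTGCG for NRF1, CCGGAAG for ETS factors such as GABP, and AAGATGG for YY1, and no member window held overlapping letters of different motifs. Mrpl42, with the highest fold change, lies at chr10:95501900-95502199 on the minus strand, with a YY1 match beginning 27 bases after the start. Mrpl12 lies at chr11:120484387-120484686 on the plus strand, with 3 NRF1 matches, of which 1 begins 79 bases before the start. Mrps27 lies at chr13:99344536-99344835 on the plus strand and holds letters of all 3 motifs, with an ETS match 48 bases before and a YY1 match 14 bases after the start. Mrpl36 at chr13:73330759-73331058 and Mrpl52 at chr14:54426659-54426958, both on the plus strand, are from the low end. The Mrpl36 window has a YY1 match 29 bases before the start, and the Mrpl52 window a YY1 match 91 bases before and ETS matches 47 bases before and 2 bases after the start.
Mrpl42: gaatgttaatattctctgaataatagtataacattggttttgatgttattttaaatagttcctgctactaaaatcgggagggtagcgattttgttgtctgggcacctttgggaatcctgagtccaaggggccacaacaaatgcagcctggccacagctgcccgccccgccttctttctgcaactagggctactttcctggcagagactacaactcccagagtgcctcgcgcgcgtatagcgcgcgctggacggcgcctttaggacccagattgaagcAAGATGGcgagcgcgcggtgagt
Mrpl12: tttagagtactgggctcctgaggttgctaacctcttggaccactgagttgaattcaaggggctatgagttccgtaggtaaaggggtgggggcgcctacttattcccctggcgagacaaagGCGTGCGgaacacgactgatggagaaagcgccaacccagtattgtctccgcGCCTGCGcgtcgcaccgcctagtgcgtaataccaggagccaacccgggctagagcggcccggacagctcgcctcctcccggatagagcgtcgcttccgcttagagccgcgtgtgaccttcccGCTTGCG
Mrps27: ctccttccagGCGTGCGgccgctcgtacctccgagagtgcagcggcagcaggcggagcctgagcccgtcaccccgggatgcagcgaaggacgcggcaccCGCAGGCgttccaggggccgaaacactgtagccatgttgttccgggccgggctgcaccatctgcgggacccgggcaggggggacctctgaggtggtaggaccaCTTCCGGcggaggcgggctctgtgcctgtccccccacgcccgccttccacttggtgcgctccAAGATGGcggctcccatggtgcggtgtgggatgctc
Mrpl36: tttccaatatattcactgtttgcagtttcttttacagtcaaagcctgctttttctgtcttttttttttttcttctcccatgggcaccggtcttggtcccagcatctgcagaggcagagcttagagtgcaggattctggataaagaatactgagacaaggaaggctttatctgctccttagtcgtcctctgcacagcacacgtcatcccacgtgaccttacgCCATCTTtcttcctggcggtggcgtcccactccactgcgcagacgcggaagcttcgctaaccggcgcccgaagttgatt
Mrpl52: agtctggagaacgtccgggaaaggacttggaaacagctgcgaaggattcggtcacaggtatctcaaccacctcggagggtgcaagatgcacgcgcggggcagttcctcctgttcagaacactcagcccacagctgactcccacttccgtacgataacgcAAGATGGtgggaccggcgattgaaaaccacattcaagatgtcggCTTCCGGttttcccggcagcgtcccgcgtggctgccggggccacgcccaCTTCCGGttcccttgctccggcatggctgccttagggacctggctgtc

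Windows were found for 69 of the 78 members. The NRF1 letters were in the windows of 27 members, or 39.1%, against 18.2% of all genes with a window. The ETS letters were in 26 members, or 37.7%, against 9.93% of all genes, and the YY1 letters in 13 members, or 18.8%, against 7.28%. The member windows had a median GC content of 58.7%, against 52.7% over all windows, and these shares were not corrected for it. Among 64 nuclear respiratory chain genes with a window, 48.4% held the NRF1 and 17.2% the YY1 letters, and 16 genes the ETS letters. Among 60 cytosolic ribosomal protein genes with a window, whose median log2 fold change was -0.078, 31.7% held the NRF1, 41.7% the ETS and 15.0% the YY1 letters. Letters of at least 1 motif were in 68.1% of members, 70.3% of respiratory chain genes and 70.0% of cytosolic ribosomal protein genes, against 30.2% of all genes. Within the members the motifs did not sort the fold changes into separate ranges. The median log2 fold change was 0.75 with and 0.78 without the NRF1 letters, 0.72 with and 0.81 without the ETS letters, and 0.86 with and 0.75 without the YY1 letters. Mrpl42 at the top and Mrpl52 at the bottom of the range both held the YY1 letters. A match describes the letters of the window, and no binding was measured.

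Many members share a start region with a gene on the other strand. In 30 pairs, a protein-coding gene on the opposite strand started within 1000 bases of the member's start, at 26 to 935 bases. The members of these pairs had a median log2 fold change of 0.78 and their neighbours one of 0.013, close to that of all genes. Of the neighbours 13 were higher, 5 lower and 12 not past the threshold, against 28.7% higher and 28.8% lower of all genes. In 26 pairs the member's fold change was above its neighbour's. This count was also 26 with quantile normalization, and 24 of 28 pairs tested on log2(FPKM + 1) and on TPM. It was 26 with median-of-ratios scaling and library totals too. However, a scale factor per library moves both genes of a pair nearly alike, so these scalings could hardly have changed the count. The same holds for the step from FPKM to TPM. In the remaining 4 pairs the neighbour was above the member. Mrpl36 starts 51 bases from Ndufs6, a subunit of complex I. Ndufs6 had 37.6 ± 1.30 FPKM in knockout-labelled and 19.5 ± 0.692 FPKM in control libraries (SD, n = 3 each), and its log2 fold change was 1.37 beside 0.27 for Mrpl36. Mrpl47 and its neighbour Ndufb5, also of complex I, had 0.82 and 1.46. Mrpl43 had 0.60, and Twnk, the mitochondrial DNA helicase, 0.73. Mrpl54 had 0.76, and its neighbour Apba3 1.00. Among the other 26 pairs, Mrps12 had 0.69, and Sars2, the mitochondrial seryl-tRNA synthetase, 0.60. Mrpl46 and Mrps11 are both members and start 412 bases apart, and they had 0.90 and 0.54.

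Other pairs went apart in sign. Mrpl44 had a log2 fold change of 0.80 and its neighbour Wdfy1 one of -0.71. Mrpl30 had 1.07 beside -0.47 for Mitd1, and Mrpl2 had 1.04 beside -0.43 for Klc4, a kinesin light chain. Mrpl49 had 0.66 beside -0.13 for Fau, the gene of a cytosolic ribosomal protein. These pairs were chosen from the table of pairs after their values were seen, and the difference within a pair was not tested. In addition, 31 members overlapped a gene on the opposite strand and 10 a gene on the same strand, where reads could be assigned to either gene.

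**Figure D4:**
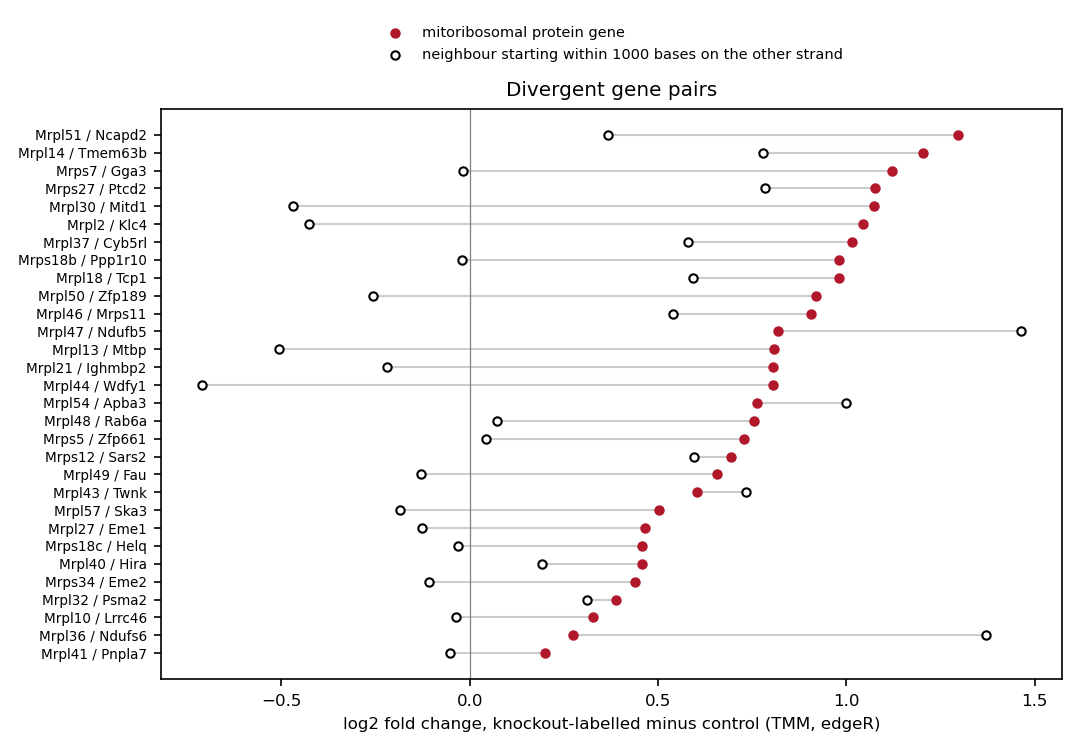
Log2 fold change (x axis, knockout-labelled minus control, TMM scaling) of 30 members (red) and of the protein-coding gene that starts within 1000 bases on the other strand (open circles), 1 pair per line. The member lies to the right of its neighbour in 26 pairs, and to its left in Mrpl47, Mrpl54, Mrpl43 and Mrpl36. Absolute positions shift to the left on library totals and TPM, and the distance within a pair changes by at most 0.0028 under library totals but by up to 0.52 on log2(FPKM + 1) and 0.32 on TPM, both in Mrpl13 with Mtbp.

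The table lists 327 transcripts for the 78 members, of which 163 are protein-coding and 88 have a retained intron. The transcript with the highest share of a gene's FPKM was the same in both groups for 76 members. Over all 78 members, the main transcript of each group held a median of 91.6% of FPKM in knockout-labelled and 85.8% in control libraries. The share moved by 10 percentage points or more in 14 of the 76 members with the same main transcript. Shares over all other genes were not computed. By type, the main transcript was protein-coding in 76 members in knockout-labelled libraries and in 75 in controls. That of Mrps16 had no defined coding sequence, at 57.6% in knockout-labelled and 70.6% in control libraries. That of Mrps26 had a retained intron, at 79.1% and 83.5%. In controls the main transcript of Mrps34 was typed as nonsense-mediated decay, at 34.4%. In Mrpl36 the main protein-coding transcript ENSMUST00000022098 held 71.6%, 72.1% and 69.1% in knockout-labelled libraries and 80.6%, 91.1% and 82.9% in controls, without overlap. In Mrpl15, a bacterial-type protein named here after its values were seen, ENSMUST00000156816 held 87.3%, 93.7% and 94.7% in knockout-labelled libraries and 69.3%, 72.6% and 70.5% in controls, also without overlap. In Mrps2, ENSMUST00000038600 held 84.9%, 87.5% and 92.7% in knockout-labelled libraries and 44.4%, 53.7% and 85.4% in controls, so the groups overlapped.

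The exceptions were Mrpl58 and Mrps34. In Mrpl58, 2 protein-coding transcripts were nearly level, at 41.9% ± 1.86 and 38.6% ± 4.40 in knockout-labelled and 37.97% ± 5.79 and 38.5% ± 4.30 in control libraries (SD, n = 3 each). In Mrps34 the shares changed from library to library, as its transcript ENSMUST00000043907 held 21.5%, 83.5% and 36.7% in knockout-labelled libraries and 71.6%, 21.4% and 7.73% in controls. Shares of transcripts are estimates from short reads and were not tested.

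The remaining parts of the mitoribosome were followed for comparison. The 5 mitoribosomal proteins with other names were all higher under TMM, at a median of 0.93. They are Gadd45gip1 (1.13), Chchd1 (1.08), Ptcd3 (0.93), Dap3 (0.73) and Aurkaip1 (0.32). On TPM 3 of them were higher and 1 was lower, against 13.3% and 77.9% of all genes. The ribosomal RNAs mt-Rnr1 and mt-Rnr2 had log2 fold changes of 1.56 and 1.80 and were higher under each of the 6 scalings. Since the libraries were poly(A)-selected, these levels cover the captured part of the rRNA.

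Genes that serve the mitoribosome moved with smaller medians. Of all genes, 28.7% were higher and 28.8% lower under TMM, and 13.3% higher and 77.9% lower on TPM. Of 26 assembly factors 22 were higher, with a median of 0.49, and on TPM 4 of 25 tested were higher and 14 lower. Among them Malsu1, which binds Mrpl14, had 5.69 ± 0.274 FPKM in knockout-labelled and 3.63 ± 0.258 FPKM in control libraries (SD, n = 3 each), and a log2 fold change of 1.07. Of 16 translation factors 15 were higher, at a median of 0.55, against 6 higher and 7 lower on TPM. Tufm, the elongation factor that brings aminoacyl-tRNA, had 40.0 ± 0.942 FPKM in knockout-labelled and 24.4 ± 1.19 FPKM in control libraries (SD, n = 3 each), and a log2 fold change of 1.14. Taco1, an activator of cytochrome c oxidase translation, had a log2 fold change of 1.69. Of 17 mitochondrial aminoacyl-tRNA synthetases 14 were higher and 1, Wars2, was lower at -0.30, with a median of 0.46, while on TPM 8 of 16 tested were lower. Of 19 genes for copying, transcription and processing of mitochondrial nucleic acids 15 were higher, at a median of 0.59, and on TPM 3 were higher and 11 lower.

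The products of the mitoribosome and their nuclear partners had higher median fold changes than the members under TMM. All 13 mitochondrially encoded protein genes were higher, at a median of 1.58. With quantile normalization 9 of them were higher and 1 lower, and their median of 0.39 lay below the 0.73 of the members. Of 77 nuclear respiratory chain subunits 75 were higher and 2 lower, at a median of 1.33, and 72 and 2 on TPM. The 2 lower genes were Cox6a1 (-0.52) and Cox8a (-0.39), the forms of these cytochrome c oxidase subunits used outside striated muscle. Of the 82 cytosolic ribosomal protein genes 12 were higher and 36 lower, at a median of -0.078, against 28.7% and 28.8% of all genes. Library totals gave 1 higher and 78 lower, against 16.6% and 50.7% of all genes. Rpl3l, the form of Rpl3 made in striated muscle, had 156 ± 4.63 FPKM in knockout-labelled and 42.0 ± 0.505 FPKM in control libraries (SD, n = 3 each), and a log2 fold change of 2.32, and Rpl3 itself had one of -0.62. No test was made between the lists.

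**Figure D5:**
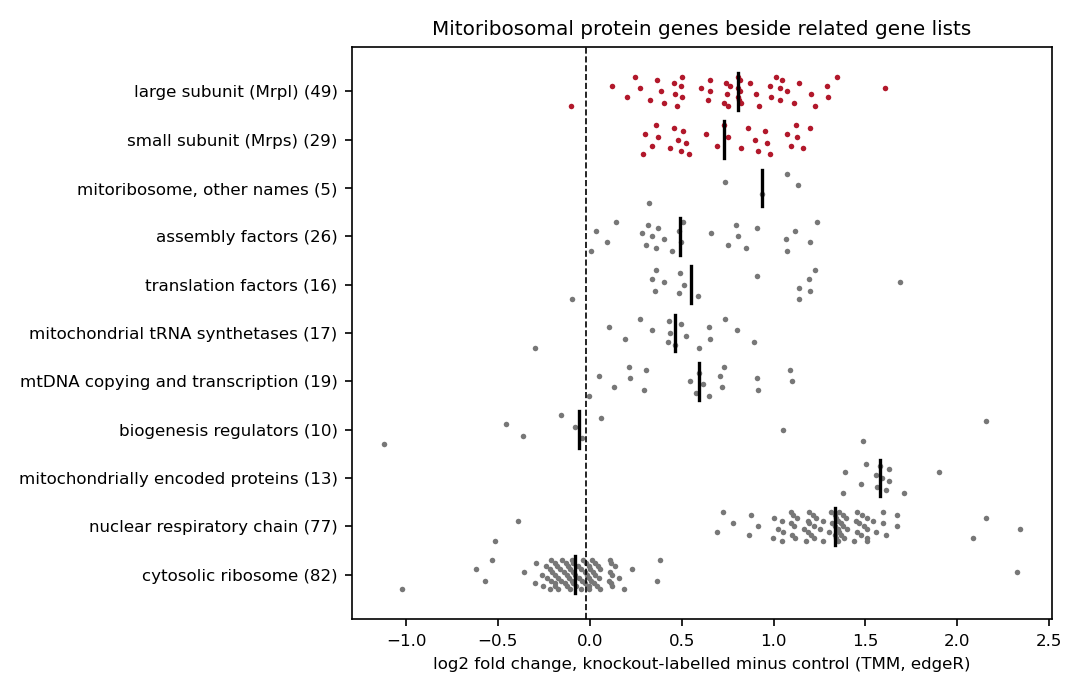
Log2 fold change (x axis, knockout-labelled minus control, TMM scaling) of each gene of the members' subunits (red) and of related lists (grey), with the number of genes tested in parentheses. Black bars are list medians and the dashed line is the median of all genes. The medians of the large and small subunit, 0.80 and 0.73, lie between those of the cytosolic ribosome at -0.078 and the nuclear respiratory chain at 1.33, and on TPM they are 0.028 and -0.044.

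Regulators known to act on mitochondrial genes were called in both directions, under TMM at about the shares of all genes. Of 10 tested, 3 were higher and 3 lower under TMM, at a median of -0.061, against 28.7% and 28.8% of all genes. With quantile normalization 3 were higher and 4 lower, and 3 were higher and 7 lower under library totals and on TPM, at medians of -0.48 and -0.79. The shares of all genes were 16.6% higher and 50.7% lower under library totals, and 13.3% and 77.9% on TPM. Ppargc1a, a coactivator of mitochondrial biogenesis, had 2.08, 1.65 and 1.82 FPKM in knockout-labelled libraries and 0.516, 0.548 and 0.605 FPKM in controls, a log2 fold change of 2.15 (adjusted p = 1.7e-08). The nuclear receptors Esrrg and Esrra, its partners, had log2 fold changes of 1.49 and 1.05. Myc had 3.99, 5.62 and 5.83 FPKM in knockout-labelled libraries and 13.6, 16.5 and 15.0 FPKM in controls, a log2 fold change of -1.12. All 4 genes were separated between the groups. Nrf1, whose motif is given above, had 2.21 ± 0.0425 FPKM in knockout-labelled and 2.85 ± 0.207 FPKM in control libraries (SD, n = 3 each), with a log2 fold change of 0.06 under TMM that did not pass (adjusted p = 0.46). Under library totals and on TPM it was among the 7 regulators called lower.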

How the data were processed

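Femur RNA of 3 knockout-labelled and 3 corn oil control mice was sequenced from poly(A)-selected stranded libraries, per the labels' protocols, and groups were taken from the treatment label. The labels do not say how replicates were separated beyond the design text, which gives 3 mice per group. The authors deposited gene and transcript tables with FPKM (fragments per kilobase, scaled to depth) and estimated counts. Per the submitters' processing notes, HISAT2, StringTie, RSEM and fastp were used with the build GRCm39, and versions are not named. The strand setting and annotation release of the counting were not stated. The deposited expected counts equalled FPKM times transcript length and a constant per library within 1 count for 99.9% of values, so they derive from coverage, and a read pair adds about 4 counts. Counts were rounded to whole numbers where needed.

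Genes were tested with edgeR 4.0.16 in R 4.3.3 (filterByExpr, TMM, quasi-likelihood F test, two-sided, Benjamini-Hochberg at 0.05 over 20388 genes), with all 6 libraries and no covariate. Standard errors (SE) were computed from the variation of log2 CPM between replicates. SEs and adjusted p reflect the spread between these libraries, and how far it covers variation between mice was not tested. An exact permutation test of 3 against 3 cannot go below p = 0.1. TPM was computed from FPKM. Alternatives were other scalings, limma 3.58.1 on log2(FPKM + 1), log2(FPKM + 0.1) and log2(TPM + 1) over genes reaching FPKM 1 in at least 3 libraries, DESeq2 1.42.0, other filters and leaving out each library. The fits were checked on simulated counts in which few genes changed, in both directions, so the choice of scaling was not checked. The members and the lists were chosen with earlier results of these data known, lists are described by counts and medians, and no test was made over a list. Members named with values are the 8 highest and 8 lowest fold changes, the 5 highest and 5 lowest levels, and 11 members with a special role, plus the 3 highest and lowest of each subunit, or 35 in all. In other lists, up to 4 genes by adjusted p and all genes of lists of 5 or fewer could be named, and others were chosen after their values were seen. Subunit by structure and descent were assigned by hand from knowledge of the mammalian mitoribosome. Promoters are RefSeq sequences of GRCm38.p6, the motif cores were chosen after longer forms had been searched, and gene coordinates are those of the tables (GRCm39), which were not mixed.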

Additional observations from a re-analysis of the deposited data

How the results depend on the processing

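Most settings left the TMM result as it was. Median-of-ratios scaling, DESeq2, quantile normalization and the absence of a filter kept the direction and call of all 35 named members, and quantile normalization gave medians of 0.73 for all members, 0.76 for the large and 0.68 for the small subunit, and 0.45 for the related lists pooled. Without a filter these medians were 0.73 for all members, 0.77 for the large subunit and 0.55 for the related lists. Leaving out each library in turn gave 74 to 75 members higher, a median of 0.76 to 0.77, large subunit medians of 0.76 to 0.78, small subunit medians of 0.68 to 0.75, a difference of medians of 0.020 to 0.095 and related-list medians of 0.55 to 0.59. Large and small subunit counts then ran from 46 to 47 and from 28 to 29. Assigning subunits by structure gave a small subunit median of 0.66 and a difference of 0.14. Mrps25 passed at 0.29 with a mean count of 100 or more, with counts divided by 4, and in the replicate block. Replicate numbers did not pair the samples: same-numbered libraries deviated together with correlations of 0.005, 0.003 and -0.009, and the replicate block gave 75 of 78 members called.

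Scaling to the whole library lowered all values. Library totals gave medians of 0.34 for all members, 0.38 for the large and 0.31 for the small subunit, 17 small subunit genes higher, and 0.16 for the related lists. Limma on log2(FPKM + 1) gave 0.30, 0.31, 0.25, 17 and 0.12 for the same quantities, and log2(FPKM + 0.1) gave 0.33, 0.37, 0.30, 17 and 0.15. Limma on log2(TPM + 1) gave medians of -0.0098, 0.028, -0.044 and -0.19 and counts of 27 members, 17 large and 10 small subunit genes higher. Log2 fold changes that turned negative were Mrpl10 -0.095, Mrpl19 -0.057, Mrpl20 -0.30, Mrpl24 -0.17, Mrpl32 -0.032, Mrpl36 -0.15, Mrpl41 -0.22, Mrps16 -0.12, Mrps2 -0.081 and Mrps25 -0.13 under library totals, Mrpl10 -0.095, Mrpl19 -0.048, Mrpl20 -0.29, Mrpl24 -0.17, Mrpl32 -0.029, Mrpl36 -0.14, Mrpl41 -0.22, Mrps16 -0.11, Mrps2 -0.075 and Mrps25 -0.12 with log2(FPKM + 1), and Mrpl10 -0.099, Mrpl19 -0.061, Mrpl20 -0.31, Mrpl24 -0.18, Mrpl32 -0.039, Mrpl36 -0.15, Mrpl41 -0.23, Mrps16 -0.13, Mrps2 -0.085 and Mrps25 -0.13 with log2(FPKM + 0.1). On TPM they were Mrpl10 -0.44, Mrpl19 -0.37, Mrpl20 -0.64, Mrpl24 -0.52, Mrpl32 -0.34, Mrpl34 -0.033, Mrpl36 -0.49, Mrpl41 -0.57, Mrpl58 -0.26, Mrps10 -0.24, Mrps12 -0.075, Mrps16 -0.46, Mrps18c -0.30, Mrps2 -0.41, Mrps25 -0.46, Mrps30 -0.023 and Mrps35 -0.23. These scalings shifted the median of all genes from -0.019 under TMM to -0.44 (library totals), -0.34 (FPKM + 1), -0.42 (FPKM + 0.1) and -0.71 (TPM). The limma fits covered 13778 genes, against 20388 under TMM and library totals. The distance of the member median from that of all genes was 0.78, 0.64, 0.76 and 0.70, beside 0.78 under TMM. The cause of the difference beyond the shift was not tested. With 3 libraries per group and 1 tissue, the depth allowed every member to be tested, and the number of animals limits the precision.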
